A study of Rattus norvegicus with 4 samples.

Results

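The nuclear subunits of oxidative phosphorylation are the proteins that the cell nucleus encodes for the respiratory chain and ATP synthase. They were taken by name from the 32753 genes of the deposited tables: symbols starting with Nduf followed by a, b, c, s or v, Sdha to Sdhd, Uqcr, the Cox4 to Cox8 families, Atp5, and Cyc1, with the assembly factors Ndufaf and Sdhaf left out. The rule found 91 genes, of which 4 lie on the X chromosome. Complex I has 38 of them, complex II 4, complex III 10, complex IV 22 and complex V 17. Ndufa4 and Ndufa4l2 were counted with complex IV, where the Ndufa4 protein is now placed.

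RNA-seq was done on day 4 embryoid bodies, the aggregates that pluripotent cells form as they start to differentiate. The Kcnh2-/- group came from rat embryonic stem cells with a homozygous knockout of Kcnh2, the gene of the potassium channel ERG1. The WT group came from wild-type rat embryonic stem cells. Each group has 2 libraries, and both groups carry the strain label DASD. All 4 libraries came from hanging drops made with the GSK3 inhibitor CHIR9902 (the labels' spelling), the MEK inhibitor PD0325901 and the ROCK inhibitor Y27632, followed by culture on laminin and a last day in a medium that the labels call DM. The labels do not say whether the 2 libraries of a group are separate cultures or lines, nor how many clones the knockout rests on, so p-values measure the spread between these samples only. RPKM, the unit of all levels here, divides reads by a gene's length and by the reads of its library, so levels of different genes can be set side by side. The read depth is unknown. RPKM over all genes summed to 1.09e+08 and 8.93e+06 in Kcnh2-/- replicates 1 and 2, and to 7.95e+07 and 1.17e+07 in WT replicates 1 and 2. Nearly all of these sums lay outside the tested protein-coding genes. Those genes summed to 587516 and 864559 in Kcnh2-/- and 903879 and 710896 in WT, with no such split by number. Deviations of same-numbered libraries from their group means correlated at 0.58 over the tested protein-coding genes. Differences within each number are therefore given beside the pooled ones.

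Complex I oxidises NADH, and complex II oxidises succinate as part of the citric acid cycle. Both pass electrons through ubiquinone to complex III and then by cytochrome c to complex IV, which reduces oxygen. Complexes I, III and IV pump protons across the inner mitochondrial membrane, and complex V uses the gradient to make ATP. All but complex II also contain subunits of mitochondrial DNA, which were not analysed here. Pluripotent cells are known for a strong use of glycolysis, and heart muscle cells for dense mitochondria.

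Kcnh2 RNA stood at 0.108 and 0.504 RPKM in the Kcnh2-/- libraries, against 2.61 and 1.45 RPKM in WT. The groups did not overlap, and the difference of -1.20 ± 0.43 (SE) on the log2(RPKM + 1) scale missed the threshold (limma adjusted p = 0.980). Markers of differentiation differed between groups and between replicates. Pou5f1, the core pluripotency factor, was at 1043 and 1679 RPKM in Kcnh2-/- and 273 and 1203 in WT. Actc1, cardiac actin, was at 37.3 and 5.14 RPKM in Kcnh2-/- and 310.2 and 23.5 in WT. The summed RPKM of 7 pluripotency genes was 1317 and 2239 in Kcnh2-/- and 355 and 1579 in WT, most of it from Pou5f1. Of the 6 tested, 4 had a positive difference and 2, Sox2 and Klf4, a negative one. Sox2 was at 18.1 and 43.8 RPKM in Kcnh2-/- and 33.9 and 47.8 in WT. The summed RPKM of 8 cardiomyocyte genes was 75.6 and 8.77 in Kcnh2-/- and 678 and 43.6 in WT, most of it from Actc1 and Tnnc1. Of the 8, 3 were tested, all with a negative difference. Nkx2-5 and Myh6 stayed at 0.111 RPKM or less in every library. Ryr2 was highest in Kcnh2-/- replicate 1, at 0.671 RPKM. Smooth muscle and fibroblast genes (7) summed to 274 and 19.9 RPKM in Kcnh2-/- and 1392 and 63.2 in WT, most of it from Tagln. Extraembryonic endoderm genes (6) summed to 11.8 and 1.78 RPKM in Kcnh2-/- and 64.0 and 8.80 in WT. Trophoblast genes (4) summed to 785 and 309 RPKM in Kcnh2-/- and 1883 and 408 in WT. Among these, Krt8 was at 531 and 53.1 RPKM in Kcnh2-/- and 1567 and 175 in WT. Krt18 was at 253 and 255 RPKM in Kcnh2-/- and 314 and 230 in WT. Elf5 was at 0.472 and 0.610 RPKM in Kcnh2-/- and 0.0753 and 2.11 in WT. By these sums, replicate 2 of each group was richer in pluripotency RNA and poorer in these other markers than replicate 1. Single genes such as Elf5 went the other way. The 4 early mesoderm genes summed to 16.9 and 10.3 RPKM in Kcnh2-/- and 24.1 and 13.1 in WT, and the 2 tested went opposite ways. T was at 4.96 and 0.290 RPKM in Kcnh2-/- and 13.9 and 3.30 in WT. Eomes was higher in Kcnh2-/- with no overlap, at 11.5 and 9.79 RPKM against 8.70 and 9.05 in WT. Blood and macrophage lists summed to 4.62 RPKM or less in every library, with Ptprc at or near 0. The part of these shifts in the results on the subunits was not tested, and in whole embryoid bodies a change in the share of a cell type and a change in RNA per cell cannot be told apart.

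Of the 91 members, 80 reached 1 RPKM in at least 2 libraries and were tested. The 11 others stayed at 2.70 RPKM or less in every library. They comprise the heart and muscle isoforms Cox6a2, Cox7a1 and Cox8b, the testis isoform Cox8c and the hypoxia- and lung-associated isoform Cox4i2, all at 0.342 RPKM or less. Cox6c-ps1, Ndufb4l1 and a second row named Ndufa1 were listed at 0 throughout, as were Cox6a2 and Cox7a1. The rows named Ndufa13, Ndufs5 and Atp5f1 complete the 11. The Atp5f1 row, at 0.134 RPKM or less, spans 263380 bases and shares its locus with another gene. Its low value may therefore not be the level of the gene itself. For Ndufa13 and Ndufs5 the RefSeq gene of that name lies on another chromosome than the row, so a low value there says nothing of the gene itself. Such a mismatch holds for 5 members in all. The others, Uqcrb on chromosome 1, Cox6b1 on chromosome 2 and Cox7a2l2, were tested and enter the counts and medians. Of all members, 19 share a locus with another gene and 6 share a symbol, and how reads were divided among such rows is not shown in the files.

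The tested subunits were abundant, with a median of 132 and 229 RPKM in the Kcnh2-/- libraries and 126 and 143 RPKM in WT, where the median over all genes tested was between 10.9 and 12.4 RPKM. Complex V was the most abundant by median in Kcnh2-/- replicate 1 and both WT libraries, at 288 RPKM in Kcnh2-/- replicate 1, 246 in WT replicate 1 and 282 in WT replicate 2. In Kcnh2-/- replicate 2 complex IV was at 439.8 and complex V at 420.3 RPKM. Complex I was lowest in every library, at 112 and 171 RPKM in Kcnh2-/- and 89.6 and 97.3 in WT. Single subunits covered a wide range, from Ndufa4l2 at 0.912 RPKM in WT replicate 1 to Cox7b at 2987 RPKM in Kcnh2-/- replicate 2.

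**Figure D1:**
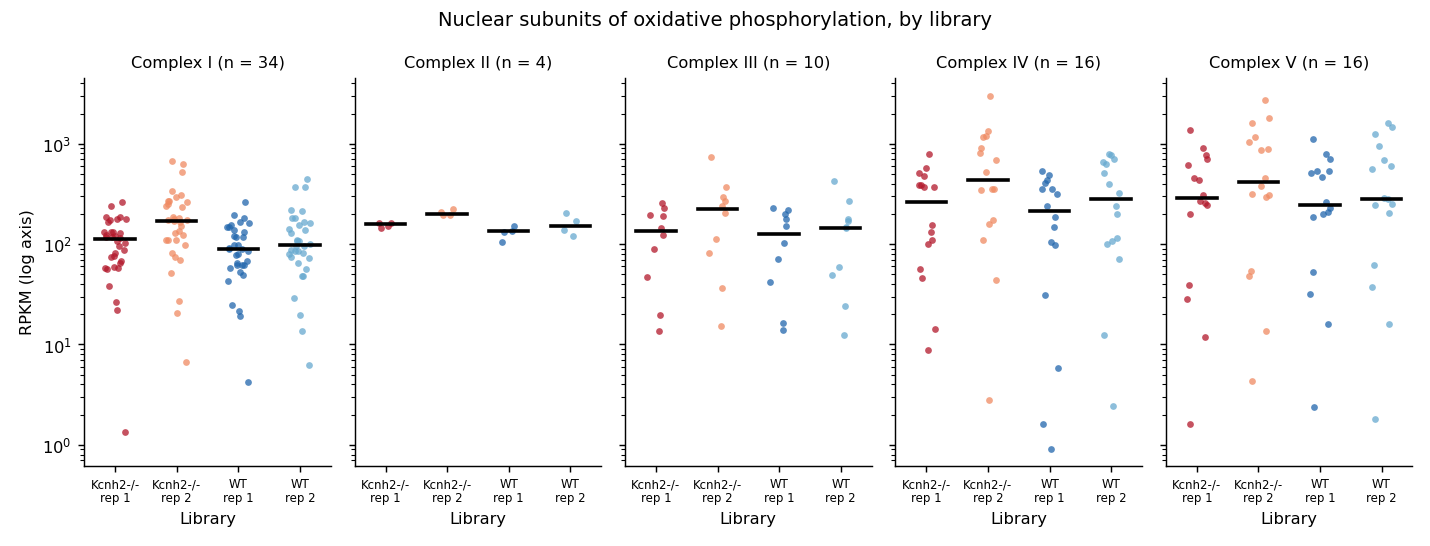
Level of each tested subunit in each library, in RPKM on a log axis, by complex; points are genes and bars are medians. The Kcnh2-/- replicate 2 median is the highest of the 4 in every complex, while Kcnh2-/- replicate 1 lies close to the WT libraries.

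No subunit passed the test between Kcnh2-/- and WT in the main fit, which had no replicate term. Most subunits nevertheless had a higher mean in Kcnh2-/-, by a modest amount that came chiefly from 1 library. Limma called 0 of the 80 members in either direction at an adjusted p of 0.05, and each had an adjusted p of 0.980 or more. Over all 12355 genes tested, 0.0324% were called higher and 0.0809% lower in Kcnh2-/-. At an unadjusted p under 0.05, 3 members were higher (Cox7b2, Ndufa1 and Ndufb11) and 0 lower, against 256 and 162 of all genes. An exact permutation test of 2 against 2 libraries cannot go below p = 0.333.

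The median difference, Kcnh2-/- minus WT in log2(RPKM + 1), was 0.40 over the 80 members, a fold of 1.32, beside 0.0052 over all genes tested. Of the members, 73 had a positive difference and 7 a negative one, a split that became 53 and 27 with quantile normalization. Both Kcnh2-/- libraries lay above both WT libraries for 28 members (35.0%), against 16.7% of all genes. They lay below for 2 members, Ndufc1 and Atp5sl, against 15.3% of all genes. The remaining 50 overlapped. At a mean of 100 to 300 RPKM, 39.1% of other protein-coding genes had both Kcnh2-/- libraries above both WT libraries.

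The excess was uneven between the libraries. Kcnh2-/- replicate 2 was the highest of the 4 libraries for 72 of the 80 members (90.0%), against 30.4% of all genes. Kcnh2-/- replicate 1 stood above both WT libraries for 29 members (36.3%), against 25.2% of all genes, and below both for 20, where the share of all genes was 28.3%. Within replicate number 1 the median difference of the members was 0.15, and within number 2 it was 0.60. Within the Kcnh2-/- group the members were higher in replicate 2 than in replicate 1 by a median of 0.72, more than the group difference, and within WT by 0.23. Without Kcnh2-/- replicate 2 the median difference was -0.018, with 39 positive and 41 negative. Without WT replicate 1 it was 0.24, and without Kcnh2-/- replicate 1 it was 0.77.

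Within both replicate numbers, 55 members (68.8%) were higher and 3 (Atp5d, Atp5sl and Ndufc1) lower in Kcnh2-/-. Of all genes, 30.8% were higher and 28.1% lower within both. At a mean of 100 to 300 RPKM, 72.7% of autosomal members and 61.3% of other protein-coding genes were higher within both. At 300 RPKM or more these shares were 73.7% and 73.9%. The other protein-coding genes include X-linked ones. The labels do not pair the libraries by number.

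**Figure D2:**
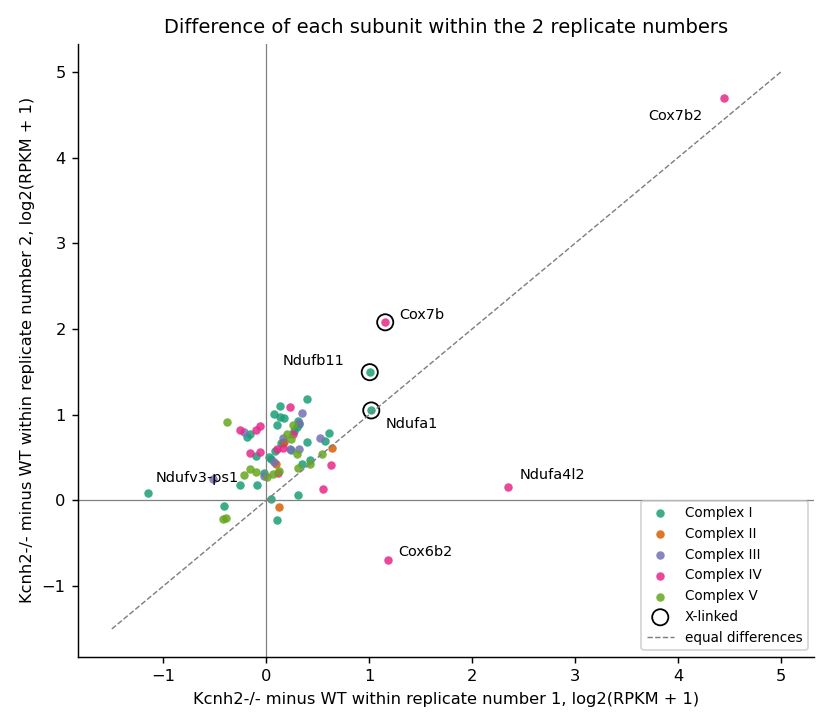
Difference of each tested subunit, Kcnh2-/- minus WT in log2(RPKM + 1), within replicate number 1 (horizontal) and within number 2 (vertical); colours give the complex, circles mark the 3 X-linked subunits and the dashed line marks equal differences. Most points lie above the dashed line, with medians of 0.15 and 0.60, and Cox7b2 stands apart at 4.45 and 4.69.

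The 3 tested X-linked members, Ndufa1, Ndufb11 and Cox7b, were higher in both Kcnh2-/- libraries than in either WT library. Their median difference was 1.25, a fold of 2.38, with 1.02 within number 1 and 1.496 within number 2. It was 0.76 without Kcnh2-/- replicate 2. The 77 autosomal members had a median of 0.38, with 0.14 and 0.59 within the numbers, and -0.029 without Kcnh2-/- replicate 2.

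Ndufa1, a small membrane subunit of complex I (rn6 chromosome X, 123803102 to 123806777), was at 185 and 269.7 RPKM in Kcnh2-/-, against 90.7 and 129.8 RPKM in WT. Its difference was 1.03 ± 0.34 (SE; limma adjusted p = 0.980). Ndufb11, another membrane-arm subunit of complex I (X, 1787265 to 1789524), averaged 122 ± 19.9 RPKM in Kcnh2-/- and 50.4 ± 3.995 RPKM in WT (SD, n = 2 each). Its values were 107.9 and 136 RPKM in Kcnh2-/- and 53.3 and 47.6 RPKM in WT, a difference of 1.25 ± 0.26 (limma adjusted p = 0.980). For both genes the group difference was larger than the log2 gap between replicates of either group.

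Cox7b, a small subunit of complex IV (X, 77065396 to 77193644), was at 793 and 2987 RPKM in Kcnh2-/-, against 356 and 707 RPKM in WT. Its difference was 1.62 ± 0.79 (limma adjusted p = 0.980), and the 2 Kcnh2-/- libraries differed from each other by more than replicate 1 differed from WT. Its locus is shared with another gene.

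Other X-linked genes were higher in Kcnh2-/- as well. Over the 359 X-linked protein-coding genes tested, the median difference was 0.60, with 0.64 and 0.59 within the numbers, and 188 (52.4%) were higher with groups that did not overlap. Of the 359, 93 had a larger difference than Ndufa1, 65 than Ndufb11 and 36 than Cox7b. The 65 X-linked genes that start between 60 and 80 Mb, the stretch that holds Cox7b, had medians of 0.67 within number 1 and 1.65 within number 2. The 294 others on X had 0.64 and 0.43. This window was not among the planned comparisons.

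The promoters of these 3 subunits, of Cox7b2 and of the autosomal Atp5a1 are printed because these genes were higher in both Kcnh2-/- libraries. Each run gives the 250 bases before the RefSeq start of the gene in GRCr8, 5′ to 3′ on the gene's strand. Capitals mark CCGGAAG, the ETS site that GABP can bind, or CCATNTT, the core of the YY1 site, on either strand; GCGCATGCG, from the NRF1 site, was searched too and is in none of the 5. The windows lie at chrX:121293556-121293805 (minus strand, Ndufa1), chrX:4126067-4126316 (plus, Ndufb11), chrX:75148786-75149035 (plus, Cox7b), chr14:37046831-37047080 (plus, Cox7b2) and chr18:73567287-73567536 (plus, Atp5a1).
Ndufa1: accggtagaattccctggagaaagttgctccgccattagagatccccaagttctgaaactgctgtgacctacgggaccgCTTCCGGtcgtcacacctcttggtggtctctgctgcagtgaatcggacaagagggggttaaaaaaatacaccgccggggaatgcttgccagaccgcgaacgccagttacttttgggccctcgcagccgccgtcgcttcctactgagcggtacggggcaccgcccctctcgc
Ndufb11: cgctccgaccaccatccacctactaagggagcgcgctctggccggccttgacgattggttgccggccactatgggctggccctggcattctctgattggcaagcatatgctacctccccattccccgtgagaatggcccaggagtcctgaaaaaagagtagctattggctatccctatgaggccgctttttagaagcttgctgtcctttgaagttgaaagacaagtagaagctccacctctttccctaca
Cox7b: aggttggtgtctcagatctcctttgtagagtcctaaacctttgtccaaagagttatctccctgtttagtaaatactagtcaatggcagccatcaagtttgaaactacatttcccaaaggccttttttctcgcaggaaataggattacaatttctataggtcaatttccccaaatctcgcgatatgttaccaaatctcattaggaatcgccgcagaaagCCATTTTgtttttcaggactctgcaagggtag
Cox7b2: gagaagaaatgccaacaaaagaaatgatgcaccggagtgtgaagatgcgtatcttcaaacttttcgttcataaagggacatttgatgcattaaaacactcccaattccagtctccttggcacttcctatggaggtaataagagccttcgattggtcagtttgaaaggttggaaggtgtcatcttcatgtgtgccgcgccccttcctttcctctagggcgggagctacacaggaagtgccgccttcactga
Atp5a1: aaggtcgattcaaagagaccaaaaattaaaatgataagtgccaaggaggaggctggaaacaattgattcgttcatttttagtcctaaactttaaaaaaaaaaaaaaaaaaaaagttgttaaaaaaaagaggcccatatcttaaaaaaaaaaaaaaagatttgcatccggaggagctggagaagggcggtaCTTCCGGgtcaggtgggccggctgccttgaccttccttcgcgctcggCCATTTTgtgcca

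Ndufa1 holds an ETS match and Cox7b a YY1 match, Atp5a1 has both, and Ndufb11 and Cox7b2 hold none of the 3 motifs in these letters. Over the 300-base windows, which add 50 bases after the start, 66 tested members had a promoter in the table. The YY1 motif was in 34 of them (51.5%), against 18.2% of 19005 protein-coding promoters. The ETS motif was in 18 (27.3%), against 11.2%, and the NRF1 motif in 6 (9.09%), against 2.03%. The members' windows also held more CG dinucleotides, with a median of 15.5 in the 250 bases before the start, against 9 over all protein-coding promoters. A match is a run of letters and not a measured site.

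Cox7b2 had the largest positive difference of the 10850 protein-coding genes tested, some of which had negative differences of greater size. It encodes an isoform of the complex IV subunit COX7B known in human for expression in testis. Cox7b2 (rn6 chromosome 14, 39368529 to 39368769) was at 56.2 and 346 RPKM in Kcnh2-/-, against 1.62 and 12.4 RPKM in WT. The groups did not overlap, although the replicates of each group differed several-fold. The difference was 4.57 ± 1.19 (SE; limma adjusted p = 0.980), with 4.45 within number 1 and 4.69 within number 2. Limma called Cox7b2 only in fits with the replicate number as a block, and the labels do not say that a number marks a shared batch.

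The Cox7b2 row spans 241 bases in rn6, and levels of so short a model rest on few positions. Set beside Cox7b, Cox7b2 made up 6.61% and 10.4% of their joint RPKM in Kcnh2-/-, against 0.454% and 1.72% in WT. The genes are paralogs, and how reads that fit both were divided is not shown in the files.

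The other tissue isoforms of complex IV did not move together. Cox6b2, the testis partner of Cox6b1, was at 14.3 and 43.6 RPKM in Kcnh2-/- and 5.76 and 71.2 RPKM in WT, so that the replicates of each group were further apart than the groups. Ndufa4l2, known as a hypoxia-induced relative of Ndufa4, was at 8.76 and 2.82 RPKM in Kcnh2-/- and 0.912 and 2.42 RPKM in WT, higher in Kcnh2-/- by 2.35 within number 1 and by 0.16 within number 2. Its partner Ndufa4 was at 157 and 351 RPKM in Kcnh2-/- and 187 and 198 RPKM in WT, with groups that overlap. The ubiquitous Cox6a1 was at 387 and 815 RPKM in Kcnh2-/- and 356 and 652 RPKM in WT. Cox8a, also ubiquitous, was at 109.5 and 175.5 RPKM in Kcnh2-/- and 98.0 and 114 RPKM in WT. The groups of both overlapped, and the differences of Cox6a1 and Ndufa4 turned negative with quantile normalization.

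**Figure D3:**
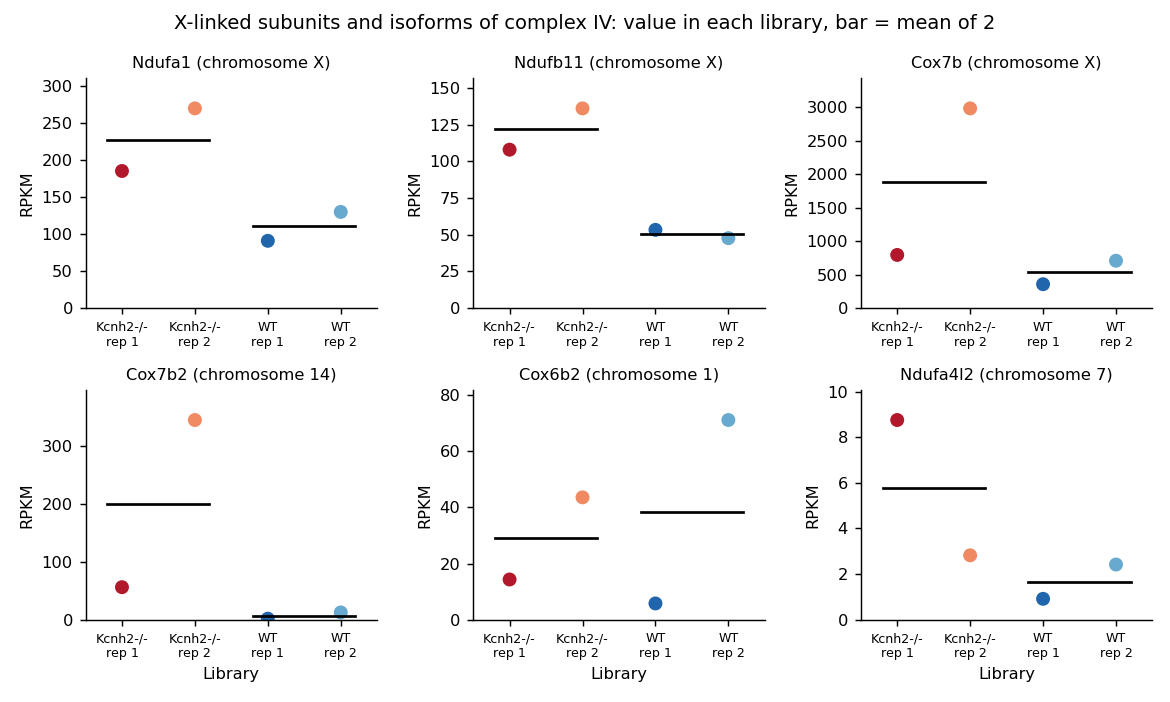
RPKM in each library for the 3 X-linked subunits and for 3 isoforms of complex IV; points are libraries, bars are means of 2, and each axis starts at 0. Ndufa1, Ndufb11, Cox7b, Cox7b2 and Ndufa4l2 have both Kcnh2-/- libraries above both WT libraries, and Cox6b2 does not.

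A list of 12 subunits drawn from all 5 complexes held catalytic or core proteins together with Cox4i1 and Cox5a, and left out other core subunits of complex I. Of the 12, 10 (83.3%) had groups that did not overlap, all higher in Kcnh2-/-. Groups were apart and higher for 18 of the 68 other members (26.5%) and 16.7% of all genes. Within both replicate numbers, 11 of the 12 and 44 of the 68 were higher, against 30.8% of all genes. Whether the 12 differ from the others was not tested. The median difference was 0.53 for the 12 and 0.35 for the others. Within number 1 it was 0.35 for the 12 and 0.12 for the others, and within number 2 it was 0.60 and 0.59. Without Kcnh2-/- replicate 2, 11 of the 12 were still positive, with a median of 0.27, while the others had a median of -0.074. With quantile normalization 10 of the 12 were positive (median 0.20). With Ndufs3, Ndufs7, Ndufs8 and Ndufv2 added and Cox4i1 and Cox5a left out, a list made after the values were seen, 10 of 14 were apart and higher, 13 were higher within both numbers and the median was 0.50. Without Kcnh2-/- replicate 2, 10 of these 14 were positive.

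In complex I, Ndufv1, the NADH-binding subunit, was at 117 and 177 RPKM in Kcnh2-/- and 78.7 and 109.6 RPKM in WT (difference 0.63 ± 0.34, limma adjusted p = 0.980). Ndufs1, the largest subunit of the electron-input module, was at 86.8 and 97.7 RPKM in Kcnh2-/- and 68.2 and 72.8 RPKM in WT. Ndufv2, an iron-sulfur partner of Ndufv1, was at 117 and 172 RPKM in Kcnh2-/- and 88.9 and 75.2 RPKM in WT, with the largest autosomal difference of complex I (0.79 ± 0.31). All 3 had groups that did not overlap.

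Over all genes tested, 16.7% were apart and higher in Kcnh2-/- and 15.3% apart and lower. Among other protein-coding genes at a mean of 100 to 300 RPKM, 39.1% were apart and higher. Of the 34 tested complex I members, 13 (38.2%) were higher in Kcnh2-/- and 1 lower with groups that did not overlap. The lower one was Ndufc1, a small accessory subunit, at 73.8 and 81.5 RPKM in Kcnh2-/- and 98.1 and 85.1 RPKM in WT (difference -0.23 ± 0.25, adjusted p = 0.980 by limma). Ndufa10, an accessory subunit, was apart and higher, at 38.4 and 50.9 RPKM in Kcnh2-/- and 24.9 and 29.2 RPKM in WT. The median of complex I was 0.42, and 0.41 without Ndufa1 and Ndufb11, with 0.13 within number 1 and 0.67 within number 2 for the 32 autosomal members. Without Kcnh2-/- replicate 2 the complex I median was 0.016.

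Complex II had a median of 0.34 over its 4 members. Sdha, the flavoprotein that oxidises succinate, was at 164 and 209 RPKM in Kcnh2-/- and 105 and 137 RPKM in WT (difference 0.62 ± 0.29, limma adjusted p = 0.980). Sdhb, the iron-sulfur subunit, was at 153 and 194 RPKM in Kcnh2-/- and 136 and 121 RPKM in WT. Both were apart between groups. The membrane anchors overlapped: Sdhc was at 143 and 193 RPKM in Kcnh2-/- and 132 and 204 in WT, and Sdhd at 163 and 226 against 152 and 168. Sdhd turned to -0.016 with quantile normalization.

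Complex III had a median of 0.43 over 10 members, and 0.053 without Kcnh2-/- replicate 2. Among other protein-coding genes at a mean of 100 to 300 RPKM, 39.1% were higher in Kcnh2-/- with no overlap. In complex III this held for 4 members (40.0%), against 16.7% of all genes. These were Cyc1 and the Rieske iron-sulfur protein Uqcrfs1, which carry electrons, and the core proteins Uqcrc1 and Uqcrc2. Uqcrfs1 averaged 277 ± 29.1 RPKM in Kcnh2-/- and 174 ± 38.5 RPKM in WT (SD, n = 2 each), a difference of 0.68 ± 0.30 (limma adjusted p = 0.980). Cyc1 was at 146 and 242 RPKM in Kcnh2-/- and 102 and 146 RPKM in WT, so that its lower Kcnh2-/- library and its higher WT library were almost level. Uqcrc1 was at 191 and 269.8 RPKM against 153 and 177, and Uqcrc2 at 88.5 and 112 RPKM against 70.9 and 59.3, Kcnh2-/- before WT. The small subunits Uqcr10 and Uqcr11 showed the split by library: Uqcr10 was at 196 and 738 RPKM in Kcnh2-/- and 229 and 426 RPKM in WT, and Uqcr11 at 123 and 203 against 176 and 171.

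Complex IV had the widest gap between replicates, with a median of 1.18 between replicates 2 and 1 of Kcnh2-/- and 0.70 in WT, against a group median of 0.37 over 16 members (0.36 over the 15 autosomal ones). Cox4i1, the ubiquitous regulatory subunit, was at 367 and 688 RPKM in Kcnh2-/- and 312 and 324 RPKM in WT (difference 0.66 ± 0.41, limma adjusted p = 0.980). Cox5a, which binds beside it, was at 373 and 529 RPKM in Kcnh2-/- and 241 and 397 RPKM in WT, and its groups overlapped. Cox6c was at 388 and 1164 RPKM in Kcnh2-/- and 405.2 and 635 RPKM in WT, and Cox5b at 578 and 1329.7 against 484 and 779.8. In all, 4 of the 16 (25.0%, against 16.7% of all genes) were apart and higher in Kcnh2-/-: Cox4i1, Cox7b, Cox7b2 and Ndufa4l2. Among other protein-coding genes the share was 39.1% at a mean of 100 to 300 RPKM and 38.3% at 300 RPKM or more. Cox6b1 (chromosome 1) was at 132 and 351 RPKM in Kcnh2-/- and 147 and 238 RPKM in WT, and a 262-base row of that name on chromosome 2 at 45.5 and 111 against 30.8 and 101.

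Complex V had the lowest median, 0.25 over 16 members, and -0.0040 with quantile normalization. The catalytic alpha subunit Atp5a1 averaged 832 ± 72.8 RPKM in Kcnh2-/- and 570.3 ± 49.5 RPKM in WT (SD, n = 2 each), with 0.54 within number 1 and 0.55 within number 2. Its difference was 0.54 ± 0.32 (limma adjusted p = 0.980). The catalytic beta subunit Atp5b was at 1377 and 1603 RPKM in Kcnh2-/- and 1109.8 and 1238 RPKM in WT, a difference of 0.34 ± 0.38 that turned to -0.037 with quantile normalization. The peripheral stalk subunit Atp5h was at 308 and 458 RPKM in Kcnh2-/- and 261 and 279 RPKM in WT. The membrane subunit Atp5l was at 612 and 1034 RPKM in Kcnh2-/- and 510.4 and 561 RPKM in WT. Both were apart and higher in Kcnh2-/-.

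The central stalk subunit Atp5d was lower within both numbers, at 39.1 and 53.4 RPKM in Kcnh2-/- and 52.7 and 62.0 RPKM in WT, with groups that overlap. Atp5sl, whose protein is not a subunit of ATP synthase, was at 11.9 and 13.5 RPKM in Kcnh2-/- and 15.9 and 15.8 in WT. The 3 genes of the c-ring subunit encode one mature protein. Atp5g1 was at 268 and 382 RPKM in Kcnh2-/- and 199 and 285 RPKM in WT, Atp5g2 at 433 and 869 against 464 and 688, and Atp5g3 at 243 and 312 against 231 and 251. Their groups overlapped. The difference of Atp5g1 was 0.42, and those of Atp5g2 (0.12) and Atp5g3 (0.19) turned negative with quantile normalization.

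Abundant genes in general were higher in Kcnh2-/-. Among protein-coding genes other than the members, the median difference was -0.16 at a mean of 1 to 10 RPKM, -0.0025 at 10 to 50, 0.18 at 50 to 100, 0.26 at 100 to 300 and 0.30 at 300 RPKM or more. The other genes include X-linked ones. The autosomal members in the last 2 ranges had 0.42 (n = 33) and 0.36 (n = 19). Within number 1 those members were below the other genes of their range, at 0.14 against 0.23 and at 0.12 against 0.21. Within number 2 they were above, at 0.67 against 0.31 and at 0.60 against 0.38. At 100 to 300 RPKM, groups were apart and higher in Kcnh2-/- for 14 of the 33 autosomal members (42.4%), against 39.1% of 622 other genes. At 300 RPKM or more they were so for 5 of 19 (26.3%), against 38.3% of 287. The pooled difference was positive for 30 of the 33 and 19 of the 19 members, against 521 of 622 and 255 of 287 other genes.

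**Figure D4:**
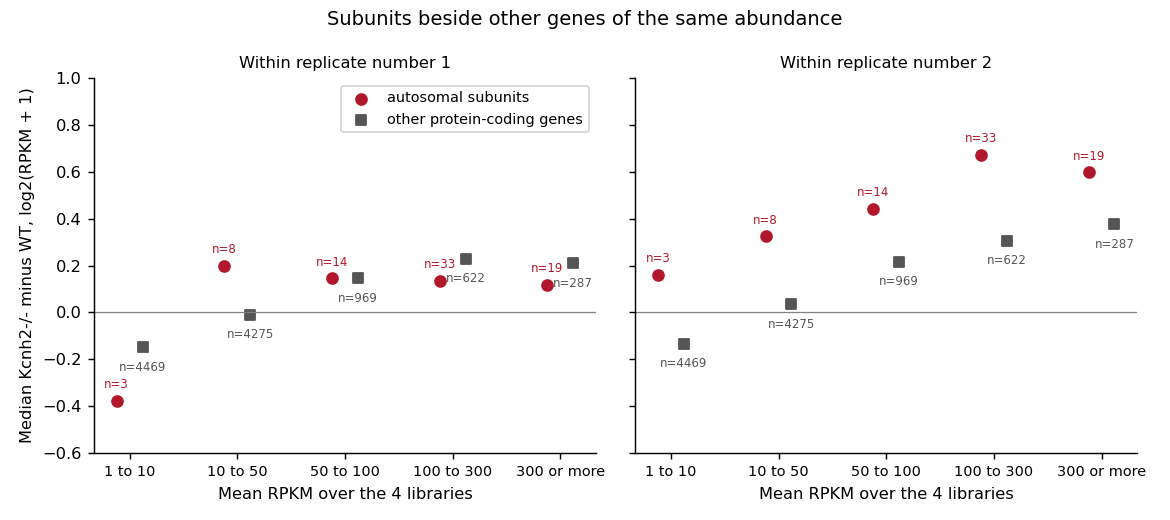
Median difference, Kcnh2-/- minus WT in log2(RPKM + 1), by mean RPKM, for autosomal subunits (circles) and other protein-coding genes (squares), within replicate number 1 (left) and 2 (right); n gives the number of genes. Above 100 RPKM the subunits lie below the other genes within number 1 (0.14 against 0.23 at 100 to 300 RPKM) and above them within number 2 (0.67 against 0.31). The other genes include X-linked ones.

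The difference also varied with chromosome. The 7 tested members on chromosomes 3 and 13, among them Atp5e, Atp5g3 and Sdhc, had a median difference of 0.029, against 0.41 for the 70 on other autosomes. Within number 2 it was 0.088 against 0.60, and within number 1 0.043 against 0.16. Groups were apart and higher in Kcnh2-/- for 0 of the 7, against 25 of the 70. Among all protein-coding genes tested, 5.64% on chromosomes 3 and 13 and 16.5% on other autosomes were so, and 0 of 7 therefore says little of the subunits. All 1118 protein-coding genes tested on these 2 chromosomes had a median of -0.013 within number 1 and -0.34 within number 2, and the 9368 on other autosomes -0.022 and 0.057. This comparison was chosen after the values were seen.

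Other genes of mitochondrial function had smaller pooled medians than the subunits, but not within number 1 for every list. Medians within numbers 1 and 2 were 0.15 and 0.60 for the subunits and 0.012 and 0.21 for assembly factors. They were 0.33 and 0.10 for regulators of biogenesis, 0.080 and 0.41 for the citric acid cycle, and 0.21 and 0.39 for mitochondrial ribosomal proteins. Assembly factors were also less abundant, at a median of 15.9 and 20.6 RPKM in Kcnh2-/- and 15.6 and 17.8 in WT. Of the 41 tested assembly factors, 0 were called by limma, 11 were apart and higher and 4 apart and lower in Kcnh2-/-, with a median of 0.17. Over all genes, 16.7% were apart and higher and 15.3% apart and lower. Sdhaf3, needed for the iron-sulfur subunit of complex II, was at 19.3 and 42.9 RPKM in Kcnh2-/- and 14.5 and 13.6 RPKM in WT. Sco1, a copper chaperone of complex IV, was at 34.6 and 48.5 RPKM in Kcnh2-/- and 23.8 and 26.3 RPKM in WT, whereas Cox20, another complex IV factor, was lower, at 17.5 and 19.5 RPKM against 23.9 and 34.3. These 3 were chosen after their values were seen.

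Among the regulators of mitochondrial biogenesis, 4 of 11 tested (36.4%) were apart and higher in Kcnh2-/-, against 16.7% of all genes. Limma called 0 of the regulators, and their median was 0.10. Tfam, which packages and transcribes mitochondrial DNA, was at 122 and 107 RPKM in Kcnh2-/- and 79.4 and 81.5 RPKM in WT. Nrf1 was at 51.2 and 54.3 RPKM in Kcnh2-/- and 37.1 and 44.0 RPKM in WT, Yy1 at 49.7 and 51.4 against 39.0 and 42.4, and Gabpa at 26.9 and 27.0 against 19.2 and 25.1. Ppargc1a, the coactivator that drives the program in muscle and brown fat, did not exceed 0.193 RPKM in any library. Cycs, the mobile carrier between complexes III and IV, was at 235 and 251 RPKM in Kcnh2-/- and 281 and 166 RPKM in WT.

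The citric acid cycle list had a median of 0.22 over 12 genes, with 3 apart and higher and 1 lower, and 0 called. Its largest difference was that of Idh3g, an isocitrate dehydrogenase subunit on the X chromosome, at 104 and 78.5 RPKM in Kcnh2-/- and 55.4 and 45.1 RPKM in WT. Mitochondrial ribosomal proteins had a median of 0.30 over 71, with 30 apart and higher and 0 lower. Cytosolic ribosomal proteins had 0.29 over 93, with 27 higher and 1 lower, and the proteasome had 0.32 over 37, with 22 higher and 1 lower. Limma called 0 genes in each of these 3 lists. Their medians within numbers 1 and 2 were, in the same order, 0.21 and 0.39, 0.17 and 0.38, and 0.22 and 0.43. Over all genes, 16.7% were apart and higher in Kcnh2-/- and 15.3% apart and lower. The gap between the Kcnh2-/- replicates was 0.40 for mitochondrial ribosomal proteins, 0.49 for cytosolic ones and 0.24 for the proteasome, against 0.72 for the subunits.

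**Figure D5:**
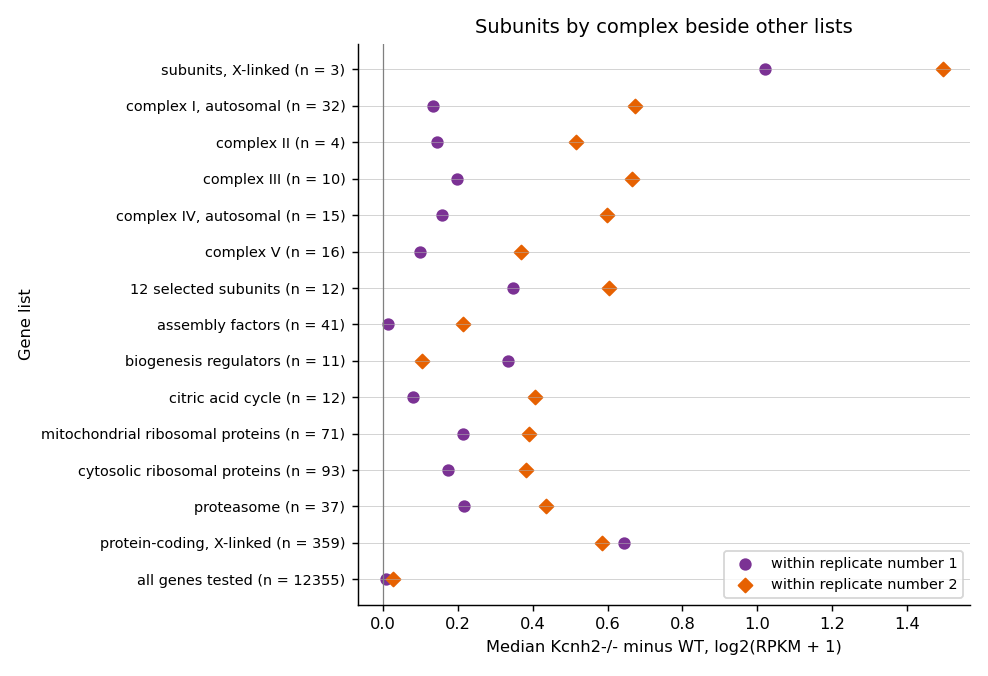
Median difference, Kcnh2-/- minus WT in log2(RPKM + 1), within replicate number 1 (circles) and 2 (diamonds), for the subunits by complex, the X-linked subunits, the 12 selected subunits and comparison lists. The X-linked subunits lie at 1.02 within number 1 and 1.496 within number 2, and all genes tested at 0.0072 and 0.027.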

How the data were processed

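The data are 4 tables of RPKM per gene, 1 for each library, from ribosomal-RNA-depleted, strand-marking libraries sequenced as paired reads, per the labels' protocols. The authors deposited the RPKM after TopHat2 2.0.13 and Cufflinks 2.2.1 on rn6, per the submitters' processing notes. The annotation and the strand setting are not given in the sources used here. RPKM sums ran from 8.93e+06 to 1.09e+08 per library, and 17610 to 17833 genes were above 0.

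Kcnh2-/- and WT were compared with limma 3.58.1 in R 4.3.3 (lmFit; eBayes, trend on; two-sided tests). Values entered as log2(RPKM + 1), a scale that understates changes of low genes. A gene was tested where 2 or more of the 4 libraries reached 1 RPKM, which left 12355, and p-values were adjusted over these by Benjamini-Hochberg, with a threshold of 0.05. The fit had no replicate term. It was run on simulated data with planted changes, to check the size of the estimates only. That simulation drew each library independently, so it left out the correlation between same-numbered libraries. SE values are limma's, and SD values are over 2 libraries. Groups are called apart where both libraries of one lie above both of the other. Protein-coding genes were matched by symbol or synonym in RefSeq (GRCr8; 19341 of 32753 symbols). Promoters are RefSeq's, and the NRF1 motif was searched with 9 of the 10 letters first planned (all 10 were in 4 of 66 members' promoters and 1.14% of all). A protein table was not used here. Members, lists and alternatives were chosen with earlier results of these data known. Named members are Kcnh2, X-linked ones, the 3 largest non-overlapping differences per complex and direction, a list of 12 and isoform pairs (fewer than 3 non-overlapping members were filled up by mean RPKM); others were chosen after their values were seen. The values of 1 named member are not reported here. Figures were made with matplotlib 3.10.9.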

Additional observations from a re-analysis of the deposited data

How the results depend on the processing

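Over 14 settings (pseudocount, filter, scaling, variance model, gene set, replicate block, each library left out) limma called no member lower, and it called members higher under 2. With the replicate number as a block it called 1, Cox7b2 (limma adjusted p = 0.00505), over all genes, and 2, Cox7b2 (0.000133) and Cox7b (0.0344), over protein-coding genes alone, where Ndufb11 (0.0708) and Ndufa1 (0.0924) missed the threshold. The labels do not say that a number marks a shared batch, and the deviations of same-numbered libraries from their group means correlated at 0.38 over all genes tested and 0.59 over the members. Over all genes the block gave 14 higher and 14 lower calls, against 4 and 10 without it, and 57 and 25 with protein-coding genes alone. Without the block, calls over all genes ran between 0 and 9 higher and between 1 and 11 lower across the alternatives.

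With 1 library left out, the median over the members ran from -0.018 to 0.77, over autosomal members from -0.029 to 0.77 and over X-linked members from 0.76 to 1.42. By complex it ran from 0.016 to 0.79 (I), 0.14 to 0.55 (II), 0.053 to 0.78 (III), -0.081 to 0.94 (IV) and -0.16 to 0.63 (V). The lowest came without Kcnh2-/- replicate 2 and the highest without Kcnh2-/- replicate 1. The count of members apart and higher ran from 29 (without Kcnh2-/- replicate 2) to 73 (without Kcnh2-/- replicate 1), where fewer libraries can overlap; these 4 counts were added after seeing the data. The differences of Cox6a1 (-0.32 to 0.76), Ndufa4 (-0.30 to 0.86), Atp5g2 (-0.38 to 0.62), Cox6b1 on chromosome 1 (-0.51 to 0.90) and chromosome 2 (-0.50 to 1.18), and Cox6b2 (-1.47 to 1.95) changed sign.

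Quantile normalization left the median at 0.16 over the members and at 0.072 for complex II. It reversed Cox6a1 (-0.089), Atp5g3 (-0.15), Atp5b (-0.037), Ndufa4 (-0.0071), Atp5g2 (-0.21), Sdhd (-0.016) and Cox6b1 on chromosome 1 (-0.11); the cause was not tested. With structural subunits alone the median was 0.41. The planned split by protein length was not run, as no protein table was used here. Depth is unknown, so no counting error can be given.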
